A study of Mus musculus with 10 samples.

Results

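The interleukin 6 (IL-6) family is a group of cytokines whose receptors share 1 signal-transducing chain, gp130, encoded by Il6st. The 10 genes described here were chosen by name, 5 encoding cytokines (Il6, Il11, Lif, Osm and Clcf1) and 5 encoding receptor chains (Il6ra, Lifr, Osmr, Il11ra1 and Il6st). They are 10 of the 38922 genes measured, and 9 of the 13719 genes with enough counts to be tested. Livers came from wildtype male mice of the inbred strain C57BL/6N, aged 6 weeks, which received either saline or CD95-Ab at 0.5 µg/g body weight. This antibody activates the death receptor Fas and causes acute liver injury. There were 5 mice in each group, injected intraperitoneally, and all livers were taken after 6 h, so that only 1 time point and 1 dose were sampled. Whole liver RNA was sequenced, and in such samples more cells of a type and more RNA per cell cannot be told apart.

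Cytokines of this family signal through gp130, or through gp130 paired with the receptor of leukemia inhibitory factor (LIF) or of oncostatin M. Some of them, such as IL-6, also bind a ligand-specific chain. The bound receptor activates JAK kinases and the transcription factor STAT3, and SOCS proteins made in response switch the signal off. In the liver the pathway is known for driving acute phase protein synthesis in hepatocytes and for its part in regeneration after injury.

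Expression after CD95-Ab rose for 4 of the 5 cytokine genes by the test across all genes (Il6, Lif, Osm and Clcf1), and Il11 had too few counts to enter that test. Il6, Lif and Osm entered it only through their level after CD95-Ab. Among the receptor genes, Osmr and Il6st rose, whereas the calls for Il6ra, Lifr and Il11ra1 did not pass the threshold. The largest change was that of Lif, which went from 3 counts in all 5 saline-injected mice together to 1697 counts in the 5 mice injected with CD95-Ab.

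The promoters of the cytokine genes that rose are shown because these genes changed together. Sequences of 250 bases before an annotated start were taken from RefSeq (GRCm38.p6) and were held for 8 of the 10 genes, in 11 windows, but not for Osm and Clcf1. Capitals mark matches, on either strand, to 5 motifs written as letters: STAT (TTCNNNGAA), NF-kB (GGANTTTCC), AP-1 (TGANTCA), C/EBP (TTGCNNAA) and CRE (TGACGTCA). The Il6 window is chr5:30012864-30013113 on the plus strand, the Lif window is chr11:4257318-4257567 on the plus strand, and the Il11 window is chr7:4778142-4778391 on the minus strand, before the second of its RefSeq starts and inside the span of the gene.
Il6: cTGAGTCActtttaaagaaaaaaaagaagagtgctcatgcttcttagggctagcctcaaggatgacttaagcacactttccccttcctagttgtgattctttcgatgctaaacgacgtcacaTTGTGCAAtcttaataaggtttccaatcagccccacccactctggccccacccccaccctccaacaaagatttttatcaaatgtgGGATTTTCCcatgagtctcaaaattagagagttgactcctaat
Lif: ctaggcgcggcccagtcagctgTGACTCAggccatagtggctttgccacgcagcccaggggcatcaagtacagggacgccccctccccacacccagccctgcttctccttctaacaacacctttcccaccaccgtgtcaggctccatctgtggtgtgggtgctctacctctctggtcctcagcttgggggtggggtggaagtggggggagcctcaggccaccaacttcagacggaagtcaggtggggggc
Il11: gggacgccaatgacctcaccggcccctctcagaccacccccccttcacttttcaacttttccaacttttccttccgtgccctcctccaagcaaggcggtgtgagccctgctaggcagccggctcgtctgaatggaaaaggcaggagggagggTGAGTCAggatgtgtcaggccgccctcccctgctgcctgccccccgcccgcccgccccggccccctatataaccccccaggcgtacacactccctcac

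The Il6 window held an AP-1 match (TGAGTCA) from position -249 to -243 relative to the start, a C/EBP match (TTGTGCAA, minus strand) from -128 to -121 and an NF-kB match (GGATTTTCC) from -43 to -35. The Lif window held an AP-1 match (TGACTCA) from -228 to -222, and this Il11 window held an AP-1 match (TGAGTCA) from -98 to -92. None of the matches overlapped another. The other 8 windows, of Il11 (first start), Il6ra, Il6st, Lifr, Osmr and Il11ra1, held none of these letters. Of 32851 mouse promoter windows of the same length, 6.75% held the AP-1 letters, 1.07% the NF-kB letters, 9.56% the C/EBP letters, 7.02% the STAT letters and 1.55% the CRE letters. These matches describe the sequence and are not evidence of binding.

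The libraries held between 25965699 and 62097636 counts per mouse, and levels are given as CPM, counts scaled to the same round total in every mouse after adjustment of the totals by TMM factors, which discount a few very abundant genes. After this scaling 3 counts equal 0.0556 to 0.121 CPM, which limits the precision for Il6, Il11, Lif and Osm in saline-injected mice. Groups were compared with edgeR's quasi-likelihood test over all 13719 genes with Benjamini-Hochberg adjustment (FDR), and a gene is called higher or lower at an FDR of 0.05 or less. Of all genes tested, 25.4% were called higher after CD95-Ab and 22.0% lower, 6.59% were called higher by at least 2 on the log2 scale, and in 18.6% every CD95-Ab mouse lay above every saline mouse. The median log2 fold change of all genes tested was 0.01. In a principal component analysis the second component set 1 mouse of each group apart, saline replicate 5 at 45.9 and CD95-Ab replicate 4 at 48.9, with the other 8 mice between -28.0 and 4.5. Counts without these 2 mice are given beside the member counts, and this comparison was added after the data were seen.

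Of the members, 6 of the 9 members tested were called higher, and 5 of the 9 rose by at least 2 on the log2 scale. Il11 is not among the 9, since its counts were too few in both groups. Il6, Lif and Osm passed the filter on low counts only through their level after CD95-Ab, and a gene kept in that way had to differ, so these counts describe the members and are not set against the shares of all genes. The FDRs given below for Il6, Lif and Osm carry the same limit. Without a filter these genes were called higher as well (edgeR FDR = 0.000197, 2.92e-08 and 6.4e-07). With at least 10 counts required in every mouse, which leaves those 3 genes out, 3 members were called higher, 2 of them by at least 2 on the log2 scale. No member was called lower, and 0 had an unadjusted p under 0.05 in that direction with edgeR's quasi-likelihood test, with DESeq2 or with edgeR's likelihood ratio test. In 7 of the 10 genes, and in 6 of the 9 tested, every CD95-Ab mouse lay above every saline mouse. Without saline replicate 5 and CD95-Ab replicate 4, 6 members were called higher and 1, Il11ra1, lower. The log2 fold changes of the tested members ranged from -0.41 to 9.23.

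Lif, at 11:4257557-4272514 (GRCm38, plus strand, ENSMUSG00000034394), encodes a cytokine that signals through LIF receptor and gp130 and is induced in many tissues by injury. In order of replicate number, the saline-injected mice had Lif at 0, 0, 0.0563, 0.0385 and 0 CPM, and the CD95-Ab mice at 7.03, 7.90, 15.1, 20.7 and 7.48 CPM. The lowest CD95-Ab mouse was above the highest saline mouse, and 3 of the 5 saline livers held no Lif count. The mean rose from 0.019 ± 0.0267 to 11.6 ± 6.06 CPM (SD, n = 5 each). On the log2 scale the fitted change was 9.23 (SE 0.62, 95% interval 7.86 to 10.59, edgeR FDR = 9.82e-07). The fitted value depends on the small count added before the log, being 7.31 with a prior count of 2. Since the saline level rests on 3 counts, the fold is also given as the ratio of pooled counts, 688-fold, with a 95% interval from 235 to 3340 that covers counting error only.

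Osm lies next to Lif at 11:4236420-4241026 (plus strand, ENSMUSG00000058755), 16530 bp away with no annotated gene between them. It encodes oncostatin M, a cytokine known mainly from macrophages, neutrophils and T cells. The 5 saline values were 0.0235, 0.0593, 0.0282, 0 and 0.0371 CPM, and the 5 CD95-Ab values were 1.80, 2.29, 3.22, 7.23 and 1.79 CPM. The groups did not overlap, and CD95-Ab replicate 4 stood above the other mice of its group. Mean Osm was 0.0296 ± 0.0215 CPM in saline and 3.27 ± 2.29 CPM after CD95-Ab (SD, n = 5 each), a fitted log2 change of 6.55 (SE 0.60, edgeR FDR = 6.43e-06). Pooled counts of 6 and 469 gave a ratio of 95 (95% counting interval 43.3 to 260).

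Il6, at 5:30013114-30019981 (plus strand, ENSMUSG00000025746), encodes the cytokine that gives the family its name and is the classical inducer of hepatic acute phase proteins. Its levels were 0.0706, 0.0296, 0, 0.115 and 0.204 CPM in saline-injected mice and 0.481, 1.21, 1.99, 2.14 and 0.753 CPM after CD95-Ab. Each mouse of the second group exceeded each of the first, although the lowest of them, CD95-Ab replicate 1, rested on 15 counts. The mean went from 0.0839 ± 0.0799 to 1.31 ± 0.735 CPM (SD, n = 5 each) with a fitted log2 change of 3.80 (SE 0.63, edgeR FDR = 0.000447). By pooled counts, 18 against 190, the ratio was 12.8 (95% counting interval 7.9 to 22.1).

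Clcf1, at 19:4214238-4223490 (plus strand, ENSMUSG00000040663), encodes cardiotrophin-like cytokine factor 1, a ligand of the ciliary neurotrophic factor receptor. Unlike the other cytokine genes of the list it was counted in every saline-injected liver, at 0.917, 0.978, 0.704, 0.462 and 1.11 CPM. After CD95-Ab it stood at 3.72, 4.24, 5.69, 7.14 and 4.38 CPM, with no overlap between the groups. Mean Clcf1 rose from 0.835 ± 0.255 to 5.04 ± 1.38 CPM (SD, n = 5 each), by 2.56 on the log2 scale (SE 0.26, edgeR FDR = 1.49e-05). The annotation places another coding gene on the same strand over part of Clcf1, so its counts depend on how reads were shared out there.

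Il11, at 7:4772373-4782859 (minus strand, ENSMUSG00000004371), encodes interleukin 11, a cytokine of stromal and epithelial cells. It had 0, 0, 0.0282, 0 and 0 CPM in saline-injected mice, a single count in all, and 0.417, 0.223, 0.318, 0.404 and 0.332 CPM after CD95-Ab, from 7 to 15 counts per mouse. All CD95-Ab mice lay above all saline mice, in a narrow range. The exact two-sided permutation test on log2(CPM + 0.1) gave p = 0.00794 (n = 5 per group), the smallest that 5 mice against 5 allow. The pooled counts, 1 and 53, gave a ratio of 64.4 (95% counting interval 11.1 to 2590).

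**Figure D1:**
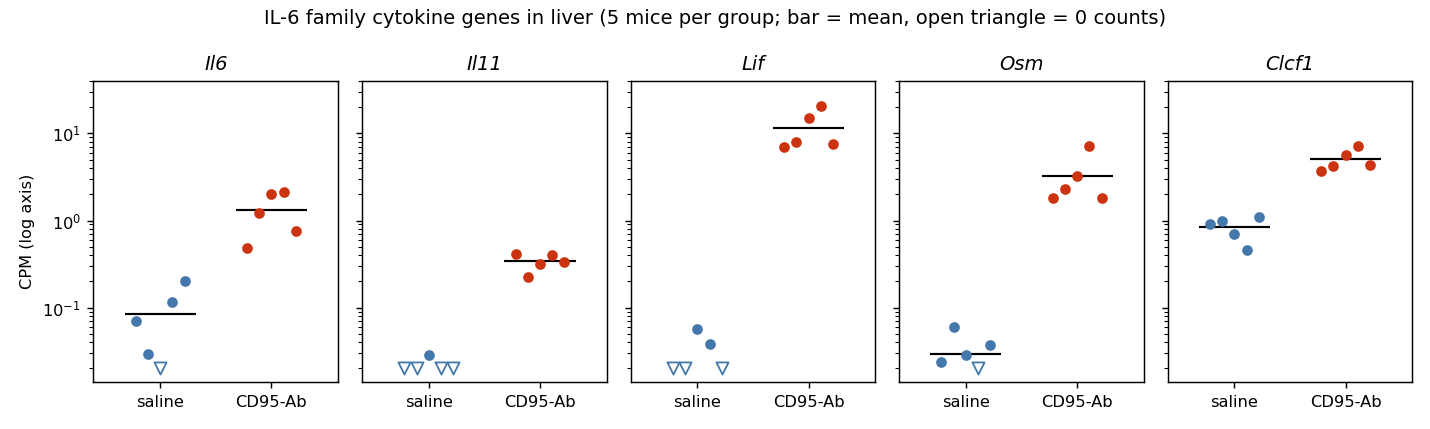
CPM (log axis) of the 5 cytokine genes in each liver, in order of replicate number within a group. A bar marks the group mean, except for Lif and Il11 in saline, and open triangles mark mice with 0 counts. Every CD95-Ab mouse lies above every saline mouse in all 5 panels, and CD95-Ab replicate 4 is the highest for Il6, Lif, Osm and Clcf1.

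Most of the immune cell markers looked at were also called higher in these livers, beside 25.4% of all genes tested. The 5 tested neutrophil markers of 6 (S100a8, S100a9, Retnlg, Cxcr2 and Csf3r) were all called higher, and their sum, Ly6g included, went from 4.08–10.2 to 102–407 CPM. All 4 monocyte markers (Ly6c2, Ccr2, Chil3 and Cx3cr1) were called higher, with a sum of 1.49–3.77 CPM in saline and 27.2–70.4 CPM after CD95-Ab. Retnlg, Ly6c2, Chil3 and Cx3cr1 passed the filter on low counts only through their level after CD95-Ab. Their calls carry the limit given for Il6, Lif and Osm. Of 5 Kupffer cell markers, Marco and Cd5l were called higher, whereas Clec4f, Vsig4 and Timd4 were not called (log2 changes 0.10, -0.02 and 0.43, edgeR FDR = 0.801, 0.955 and 0.307). The Kupffer sum ranged from 104 to 365 CPM in saline and from 204 to 487 CPM after CD95-Ab, and the groups overlapped. T and NK cell markers (5 of 5 higher) and B cell markers (3 of 3 higher) each summed to at most 10.8 CPM in any mouse. None of the T, NK and B cell markers would have passed the filter by their saline levels alone, so their calls carry the same limit. The part of all these immune cells in the change of Osm and of the other cytokine genes was not tested.

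Other measures that can bear on levels moved with the injection as well. Sums of the 5 hepatocyte markers, made up mostly of Alb, fell from 98500–122000 to 42400–78900 CPM. Alb and Ttr were called lower, and Cps1, Apoa1 and Serpina1a were not called (log2 changes -0.72, -0.39 and -0.36, edgeR FDR = 0.0885, 0.138 and 0.0631). Markers of endothelial (4 of 5), stellate (3 of 5) and bile duct cells (3 of 4) were called higher, beside 25.4% of all genes tested. Krt19, a bile duct marker called higher, passed the filter on low counts only through its level after CD95-Ab. Not called were Kdr (log2 change 0.29, edgeR FDR = 0.336), Lrat (-0.12, FDR = 0.772), Col1a1 (0.67, FDR = 0.185) and Krt7 (1.19, FDR = 0.108). Erythroid genes, 4 of 4 higher beside that same share, summed to 131–298 CPM in saline and 978–30400 CPM after CD95-Ab. RNAs without a poly(A) tail were looked at as well (Rn7sk, Rmrp, Rpph1, Snora81 and Scarna2). They summed to 0.338–0.924 CPM in saline and 357–1310 CPM after CD95-Ab. The 4 tested, all but Rmrp, were called higher, beside 25.4% of all genes tested. These 4 passed the filter on low counts only through their level after CD95-Ab, so their calls carry the limit given for Il6, Lif and Osm. The part of these shifts in the results was not tested.

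The chains that bind the ligands divided into 1 that rose and 3 that were not called. Osmr, at 15:6813577-6874969 (minus strand, ENSMUSG00000022146), encodes the oncostatin M receptor, which pairs with gp130. It stood at 2.94, 2.08, 3.94, 2.85 and 4.58 CPM in saline-injected mice and at 24, 19.1, 26.4, 19.1 and 18.1 CPM after CD95-Ab. The lowest value of the second group was well above the highest of the first. Mean Osmr rose from 3.28 ± 0.985 to 21.4 ± 3.65 CPM (SD, n = 5 each), by 2.69 on the log2 scale (SE 0.21, 95% interval 2.23 to 3.16, edgeR FDR = 2.35e-06).

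Lifr encodes the LIF receptor and is the neighbour of Osmr on the same chromosome, at 15:7090614-7197489 (plus strand, ENSMUSG00000054263). The genes are 215644 bp apart with 1 noncoding gene between them. Lifr was measured at 308, 288, 439, 453 and 222 CPM in saline and at 145, 228, 266, 299 and 349 CPM after CD95-Ab. The groups overlapped broadly. The means were 342 ± 100 and 257 ± 77.0 CPM (SD, n = 5 each), and the log2 change of -0.41 had a 95% interval from -0.96 to 0.14 (edgeR FDR = 0.201).

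Il6ra, at 3:89864059-89913196 (minus strand, ENSMUSG00000027947), encodes the chain that binds IL-6 and is known to be abundant in hepatocytes. Saline-injected livers had 29.9, 19.5, 52.3, 40.4 and 13.5 CPM, and CD95-Ab livers had 33.2, 28.4, 27.0, 8.60 and 25.3 CPM. The values overlapped, and the lowest in each group were those of the 2 mice set apart by the second component. Means of 31.1 ± 15.7 and 24.5 ± 9.37 CPM (SD, n = 5 each) gave a log2 change of -0.34 with a wide 95% interval from -1.18 to 0.50 (edgeR FDR = 0.494).

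Il11ra1, at 4:41699989-41769474 (plus strand, ENSMUSG00000073889), encodes the IL-11-binding chain. Its values were 29.5, 30.1, 23.8, 26.1 and 28.2 CPM in saline and 20.7, 22.8, 24.2, 32.5 and 18.3 CPM after CD95-Ab, and the groups overlapped. The means were 27.5 ± 2.61 and 23.7 ± 5.41 CPM (SD, n = 5 each), with a log2 change of -0.22 (95% interval -0.54 to 0.11, edgeR FDR = 0.259). This call rested on CD95-Ab replicate 4, the highest mouse of its group: without it the log2 change was -0.37 (edgeR FDR = 0.0235), and without that mouse and saline replicate 5 it was -0.36 (edgeR FDR = 0.0314). Its level is uncertain, because the annotated span overlaps 6 other genes, among them Galt on the same strand with 11388 counts over all mice, and use of strand in the counting is not stated.

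Il6st, at 13:112464070-112510086 (plus strand, ENSMUSG00000021756), encodes gp130 itself, without which none of the listed cytokines signals. It was read at 109, 101, 111, 83.4 and 69.3 CPM in saline-injected mice and at 215, 205, 226, 122 and 211 CPM after CD95-Ab. The groups did not overlap, but CD95-Ab replicate 4 came close to the saline range while the other 4 mice did not. The mean rose from 94.8 ± 18.0 to 196 ± 42.0 CPM (SD, n = 5 each), by 1.05 on the log2 scale (SE 0.19, 95% interval 0.63 to 1.46, edgeR FDR = 0.000847).

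**Figure D2:**
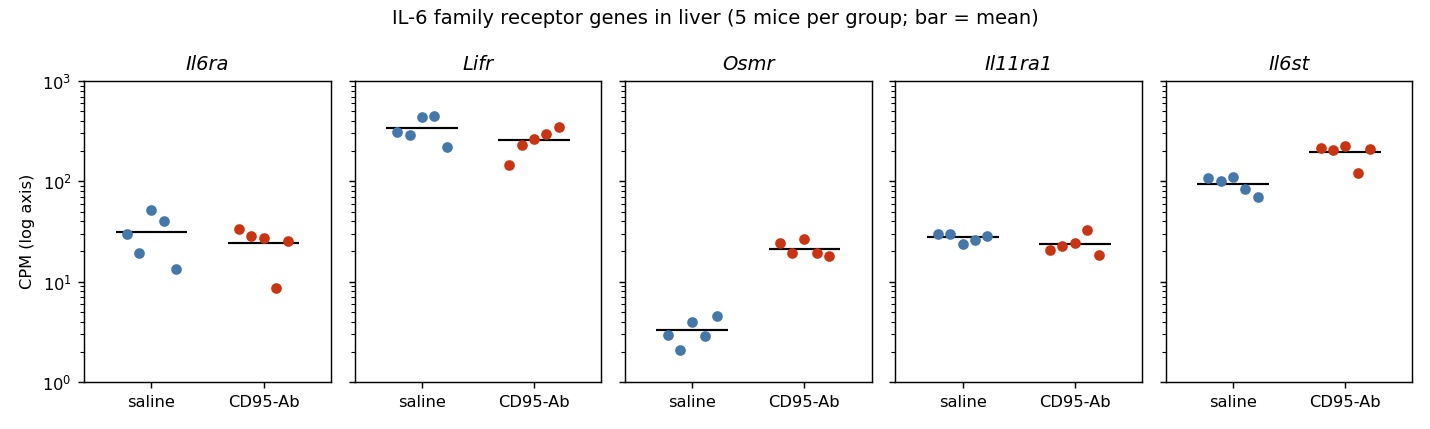
CPM (log axis) of the 5 receptor genes in each liver, in order of replicate number within a group, with a bar at the group mean. Osmr and Il6st separate the groups, whereas the values of Il6ra, Lifr and Il11ra1 overlap.

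**Figure D3:**
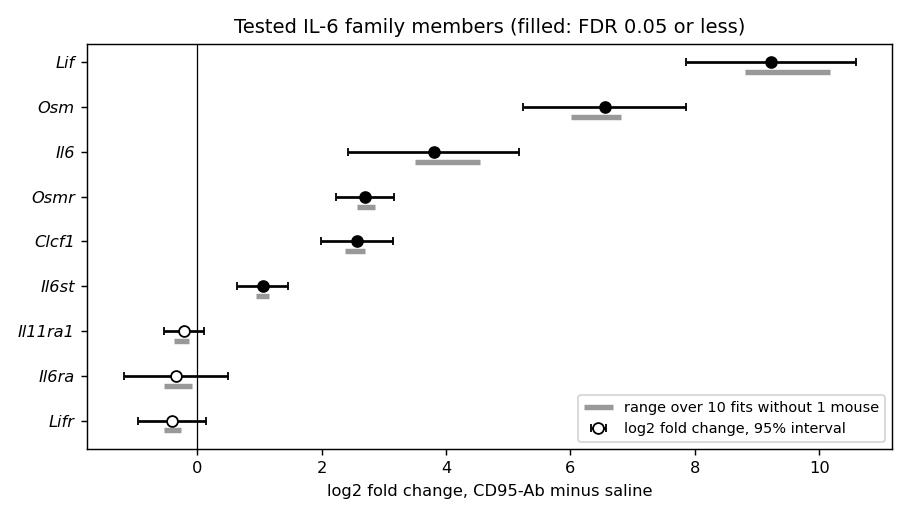
Log2 fold change, CD95-Ab minus saline, of the 9 tested members with 95% intervals (filled circles, FDR of 0.05 or less) and, in grey, the range over 10 fits that each left out 1 mouse. The 6 members called higher range from 1.05 for Il6st to 9.23 for Lif, and the intervals of Il6ra, Lifr and Il11ra1 span 0.

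The levels of different genes were compared as FPKM, which divides by transcript length and by the total of each mouse. In saline-injected livers the order by mean FPKM was Lifr (97.0 ± 37.3), Il11ra1 (18.7 ± 2.84), Il6st (11.7 ± 2.79), Il6ra (9.87 ± 4.98), Osmr (0.662 ± 0.169) and Clcf1 (0.320 ± 0.0837), with the other 4 cytokine genes below 0.1 (SD, n = 5). The ranges of Il6st and Il6ra overlapped, as did those of Il6, Osm, Il11 and Lif, and each of the other neighbours in the order was separate. After CD95-Ab the order was Lifr (64.4 ± 15.1), Il6st (24 ± 6.64), Il11ra1 (17.9 ± 2.78), Il6ra (7.47 ± 3.36), Osmr (4.38 ± 1.02), Lif (3.04 ± 1.33), Clcf1 (1.78 ± 0.287), Osm (1.39 ± 0.835), Il6 (1.18 ± 0.560) and Il11 (0.302 ± 0.0928). Here Lifr remained apart from the rest, Il11 stood below all others and Il11ra1 was separate from Il6ra. All other pairs of neighbours in this order overlapped in range. Lif moved from the lowest group of cytokine genes to the highest mean among them, and was above Clcf1 in 5 of 5 mice.

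As a share of the summed FPKM of the 4 ligand-binding chains, Lifr took 75.3% ± 5.97 in saline and 67.7% ± 6.88 after CD95-Ab (SD, n = 5 each). The Osmr share was 0.599% ± 0.362 in saline, between 0.358% and 1.24%, and 4.78% ± 1.61 after CD95-Ab, between 3.57% and 7.44%. Il11ra1 went from 16.7% ± 7.17 to 19.4% ± 4.33, and Il6ra from 7.42% ± 1.81 to 8.14% ± 4.31. LIF receptor RNA thus stayed the most abundant of the 4 in both groups. Relative to the same sum, Il6st was 9.81% ± 2.64 in saline and 25.9% ± 8.56 after CD95-Ab.

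Receptor genes were also compared as ratios within a mouse, which depend little on how the totals are scaled. For Osmr to Lifr, the alternative partners of gp130, the log2 ratio of FPKM (0.1 added to each) was -6.92, -7.28, -7.23, -7.59 and -5.60 in saline-injected mice and -2.92, -4.0, -3.73, -4.19 and -4.38 after CD95-Ab. The groups did not overlap: by FPKM with nothing added, Lifr was 54 to 226 times Osmr in saline and 7.66 to 21.3 times after CD95-Ab. The means differed by 3.08 (exact two-sided permutation test, p = 0.00794, adjusted over the 3 ratios 0.00794, n = 5 per group), an 8.45-fold change of the ratio on this scale. With 1 added in place of 0.1 the difference was 2.20. That p is the smallest 5 mice against 5 can give. Osmr and Il6st each separated the groups alone, and at least 1 of them enters each of the 3 ratios. The ratio tests are therefore not independent of those rises.

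For Il6ra to Il6st, the IL-6-binding chain and its signalling partner, the log2 ratio was -0.48, -0.97, 0.29, 0.34 and -1.11 in saline and -1.38, -1.55, -1.80, -2.46 and -1.74 after CD95-Ab. The groups lay close but apart, with Il6ra FPKM at 0.457 to 1.27 times Il6st in saline and 0.176 to 0.382 times after CD95-Ab. The means differed by -1.40 (exact two-sided permutation test, p = 0.00794, adjusted 0.00794, n = 5 per group). For Osmr to Il6st the values were -4.28, -4.64, -3.88, -3.87 and -3.07 in saline and -2.32, -2.70, -2.41, -1.91 and -2.64 after CD95-Ab. This ratio also separated the groups, with a difference of 1.55, or 2.94-fold on this scale (exact two-sided permutation test, p = 0.00794, adjusted 0.00794, n = 5 per group). Its size depended on the value added, and with 1 in place of 0.1 the difference was 0.73 (exact two-sided permutation test, p = 0.0238).

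**Figure D4:**
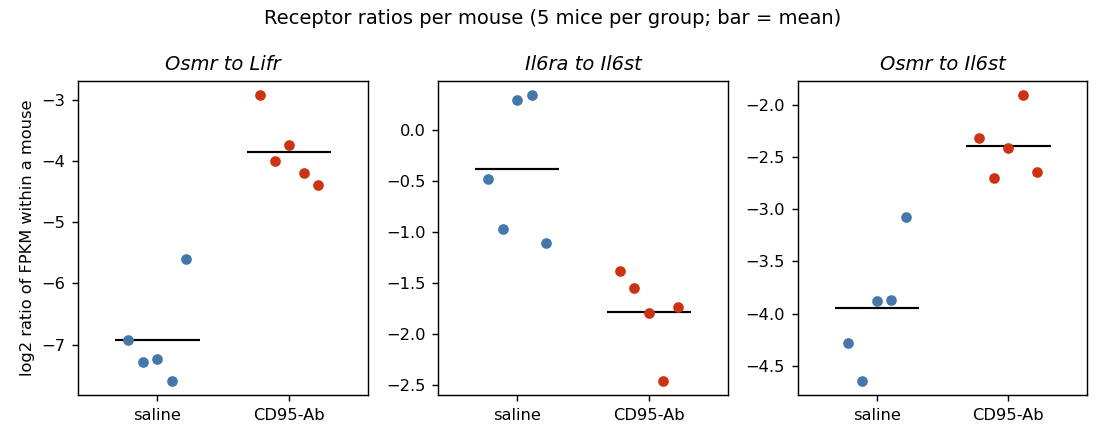
Log2 ratio of FPKM (0.1 added to each gene) for 3 receptor pairs, 1 point per mouse in order of replicate number, with a bar at the group mean. The groups do not overlap in any panel, with mean differences of 3.08 for Osmr to Lifr, -1.40 for Il6ra to Il6st and 1.55 for Osmr to Il6st.

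The remaining family genes were low in liver. Of 11, among them Cntf, Ctf1, Ctf2, Cntfr, Il27, Ebi3, Il27ra, Il31, Il31ra and Il11ra2, 5 could be tested. Of these, 2 were called higher and 1 lower, beside 25.4% and 22.0% of all genes tested, with a median log2 change of 1.0. Ebi3 passed the filter on low counts only through its level after CD95-Ab. With at least 10 counts required in every mouse, which leaves Ebi3 out, 1 was called higher. Il27ra, a chain of the IL-27 receptor, rose from 0.718 ± 0.222 to 2.38 ± 0.313 CPM (log2 change 1.70, edgeR FDR = 0.000152), and Ebi3, which encodes a subunit of IL-27, rose from 0.575 ± 0.419 to 1.67 ± 0.515 CPM (log2 change 1.52, edgeR FDR = 0.0193). Ctf1, encoding the gp130 ligand cardiotrophin 1, was the one cytokine gene of the family called lower, at 2.14 ± 0.401 CPM in saline and 0.930 ± 0.292 CPM after CD95-Ab (log2 change -1.19, edgeR FDR = 0.00221). Cntfr (log2 change 1.0, edgeR FDR = 0.168) and Cntf (-0.32, FDR = 0.305) were not called, and Il31 had 0 counts in every mouse.

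Below the receptors, 4 of 11 transducer genes (36.4%) were called higher and 2 lower, with a median log2 change of 0.37. These shares are near the 25.4% higher and 22.0% lower among all genes tested. Those higher were the kinase genes Jak2 (11.7 ± 1.88 to 47.7 ± 8.20 CPM, log2 change 2.02, edgeR FDR = 2.05e-06) and Jak1 (84.3 ± 7.94 to 140 ± 20.6 CPM, 0.74, FDR = 0.000695), the transcription factor gene Stat3 (114 ± 8.21 to 224 ± 35.6 CPM, 0.97, FDR = 0.000103) and the adaptor gene Grb2 (0.38, FDR = 0.0146). Sos1, encoding a Ras activator, and Stat5b were lower (log2 changes -0.69 and -0.55, edgeR FDR = 0.00469 and 0.0219). The others, among them Stat5a, Tyk2, Ptpn11 and Gab1, were not called.

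Of 9 genes that restrain JAK-STAT signalling, 6 were called higher and 1 lower, beside 25.4% and 22.0% of all genes tested, and the median log2 change was 1.63. Socs1 passed the filter on low counts only through its level after CD95-Ab. With at least 10 counts required in every mouse, which leaves Socs1 out, 5 were called higher. Socs3, the main inhibitor of gp130, rose from 16.1 ± 8.79 to 190 ± 74.1 CPM (log2 change 3.56, edgeR FDR = 5.03e-05) with no overlap between groups. Socs1 (0.148 ± 0.142 to 4.70 ± 2.05 CPM) and Cish (4.98 ± 2.00 to 49.0 ± 14.5 CPM) rose with log2 changes of 4.95 and 3.29 (edgeR FDR = 1.97e-05 and 6.33e-06). The phosphatase genes Ptpn2, Ptpn1 and Ptpn6 rose by 1.96, 1.63 and 0.75 on the log2 scale. Pias3, which encodes an inhibitor of STAT3, was lower (-1.06, edgeR FDR = 0.00169), and Socs2 and Pias1 were not called (log2 changes 0.15 and 0.09).

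Of 12 genes known as early targets of STAT3, 11 were called higher (25.4% of all genes tested were) and none lower, with a median log2 change of 1.70, and Socs3 is also among them. Timp1 passed the filter on low counts only through its level after CD95-Ab. With at least 10 counts required in every mouse, which leaves Timp1 out, 10 were called higher. Timp1, a protease inhibitor gene, rose from 0.124 ± 0.0385 to 4.69 ± 2.38 CPM (log2 change 5.19, edgeR FDR = 2.11e-06), and Myc, a growth regulator, rose from 4.0 ± 1.17 to 55.3 ± 22.8 CPM (3.78, FDR = 4.08e-06). Fos was the gene not called (1.55, FDR = 0.134), with saline values from 6.37 to 156 CPM. These genes also respond to other signals, and the lists were chosen with results of these mice known.

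Among 19 genes listed as acute phase genes, 16 were called higher, again beside 25.4% of all genes tested, and none lower, and the median log2 change was 1.5. One of those higher, A2m, passed the filter on low counts only through its level after CD95-Ab. With at least 10 counts required in every mouse, which leaves A2m out, 15 were called higher. Which cells of the whole liver held these RNAs was not tested. The genes with the smallest FDR were Lcn2, a siderophore-binding protein gene (29.6 ± 21.2 to 1770 ± 678 CPM, log2 change 5.90, edgeR FDR = 8.58e-06), Saa3, a serum amyloid A gene (7.31 ± 5.29 to 635 ± 329 CPM, 6.44, FDR = 1.92e-05), Orm1 (754 ± 186 to 2160 ± 174 CPM, 1.52, FDR = 6.19e-05) and Crp (330 ± 66.5 to 890 ± 165 CPM, 1.43, FDR = 9.54e-05). The fibrinogen genes Fga, Fgb and Fgg rose by 0.99, 0.87 and 0.93 on the log2 scale. Itih4, Saa4 and Hamp were not called (0.85, 0.45 and 1.5). Saa1 with Saa2, and Orm1 with Orm2, are near-identical paralogs whose separate values are uncertain. The sum of the list rose from 24800–45500 to 61500–85600 CPM, while that of the hepatocyte markers above, made up mostly of Alb, was lower.

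The 4 genes of receptor shedding, by which soluble receptors are released from the cell surface, were all called higher, as were 25.4% of all genes tested. Adam17, encoding the protease known to shed the IL-6 receptor, rose from 15.7 ± 1.49 to 34.8 ± 4.08 CPM (log2 change 1.15, edgeR FDR = 1.20e-05). Rhbdf2 and Rhbdf1, encoding the iRhom proteins that bring ADAM17 to the surface, rose by 2.36 and 1.74 on the log2 scale, and Adam10 by 0.47 (edgeR FDR = 0.00882).

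**Figure D5:**
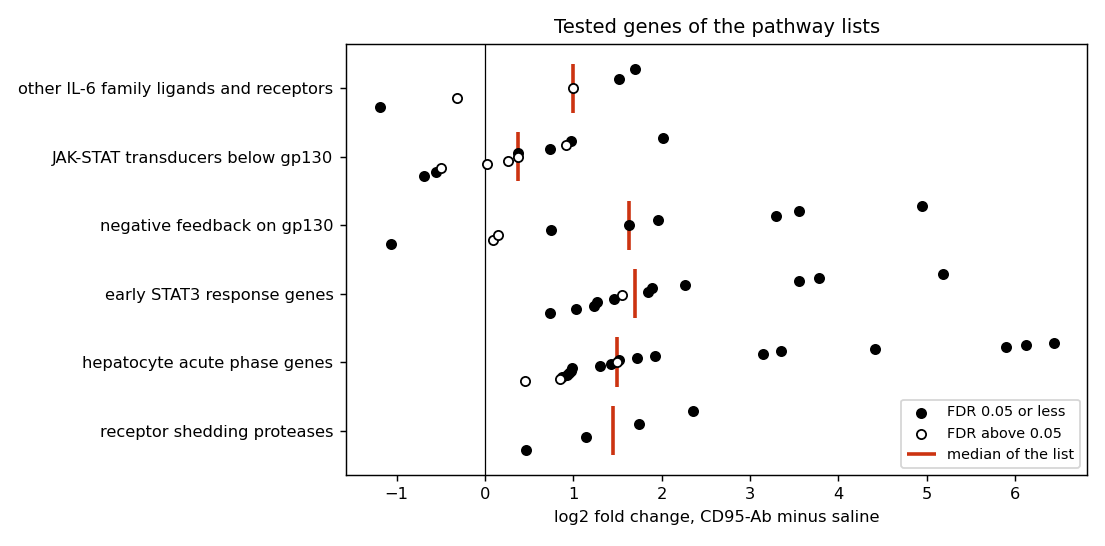
Log2 fold change, CD95-Ab minus saline, of each tested gene in 6 lists of family and pathway genes (filled circles, FDR of 0.05 or less; red line, median of the list). The medians run from 0.37 for the transducers to 1.70 for the early STAT3 response genes, beside 0.01 for all genes tested.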

How the data were processed

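Whole liver RNA of 10 mice, 5 per group, was analysed. Groups and replicate numbers came from the sample labels, which call the mice biological replicates and give no batch. Libraries were made from 500 ng of total RNA with TruSeq reagents and read as pairs of 100 bp. The authors assigned reads to genes with RSEM, version 1.2.19 per the submitters' processing notes, which shares out reads that match several genes. The methods name a human Gencode release for this step, whereas the gene identifiers in the deposited tables are mouse Ensembl identifiers. The genome build and the mouse annotation release are not given in the sources used here, so the gene models behind the counts are not known. The deposited expected counts are whole numbers without normalization, and the deposited FPKM values were scaled by the authors for transcript length and total. The counts were used for all tests, and FPKM for levels between genes, receptor ratios and 1 alternative. All identifiers were joined across mice, and 37606 of 38922 matched GENCODE mouse release M21 (GRCm38), which gave symbols and positions.

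Genes were kept by filterByExpr (minimum count 10), scaled by TMM and compared with edgeR's quasi-likelihood test (prior count 0.125, group as the only term), with Benjamini-Hochberg adjustment over all genes. Tools were edgeR 4.0.16, limma 3.58.1 and DESeq2 1.42.0 in R 4.3.3, and Python 3.11.15 with pandas 2.3.3 and scipy 1.17.1. Standard errors were derived from the F statistic, and 95% intervals from the t quantile with its degrees of freedom. Pooled ratios used exact 95% intervals for counts. Code was tested on simulated counts. No 2 mice of a group were duplicates (chi-square per degree of freedom 39.4 to 515 over 20 pairs). The p-values measure the spread between mice.

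The members, the pathway and marker lists and the tests were chosen with earlier results of these data known. All 10 members are named. From each pathway list the genes past the threshold may be named, starting with the 4 of smallest FDR in each direction, and those that missed it are named where a whole list is accounted for. Genes most like Lif, Osmr and Lifr are the 3 with the highest Pearson r. Alternatives were DESeq2, the likelihood ratio test, 2 other filters, 3 other scalings, a prior count of 2, limma on log2(FPKM + 0.1) and log2(FPKM + 1), an FDR of 0.01, a block for the replicate number, and fits that each dropped 1 mouse. Leaving out saline replicate 5 together with CD95-Ab replicate 4 was added after the data were seen. Some genes of these lists are counted but not reported here by name.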

Additional observations from a re-analysis of the deposited data

Results flagged for a closer look

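In groups of 5 mice, a value was singled out when its gap to the nearest other mouse was a large part of the group's range (Dixon's test at 95%). Among 26 groups checked, 3 values met this, and chance alone gives about 1 in 20. Saline replicate 3 held the only Il11 count of its group, 0.0282 CPM with the other 4 mice at 0, which is 1 count. CD95-Ab replicate 4 had Osm at 7.23 CPM, above the 1.79 to 3.22 CPM of its group. The same mouse had Il6st at 122 CPM, below the 205 to 226 CPM of the others. It is also the mouse set apart on the second principal component. Without it, Il6st and Osm remained called higher.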

How the results depend on the processing

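In every alternative that tested them, Lif, Osm, Il6, Clcf1, Osmr and Il6st stayed higher at an FDR of 0.05 or less, and Il6ra and Lifr stayed uncalled. Leaving out 1 mouse gave log2 changes of 8.81 to 10.17 for Lif, 6.01 to 6.82 for Osm, 3.50 to 4.55 for Il6, 2.38 to 2.69 for Clcf1, 2.56 to 2.85 for Osmr and 0.95 to 1.16 for Il6st. The size of the change in low genes depended far more on the value added before the log. With a prior count of 2, limma on log2(FPKM + 0.1) and limma on log2(FPKM + 1), Lif gave 7.31, 4.80 and 1.95, Osm 5.23, 3.60 and 1.18, Il6 3.22, 2.81 and 0.98, Clcf1 2.49, 2.17 and 1.07, and Osmr 2.67, 2.56 and 1.68. Members called lower numbered 0 to 1, the 1 being Il11ra1 without CD95-Ab replicate 4 (1 as well without that mouse and saline replicate 5, where 1 other family gene was called higher). Transducers called lower numbered 1 to 3, with 1 without saline replicate 3 or without CD95-Ab replicate 1. Differences of the Osmr to Lifr, Il6ra to Il6st and Osmr to Il6st ratios ranged from 2.85 to 3.41, -1.58 to -1.22 and 1.38 to 1.77 without 1 mouse (exact permutation p = 0.0159 each, the smallest 4 against 5 allow). With 1 added to FPKM they were 2.20, -1.30 and 0.73 (exact permutation p = 0.00794, 0.00794 and 0.0238), and as ratios of CPM 3.16, -1.35 and 1.71.

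With at least 10 counts in every mouse, which drops Il6, Lif and Osm, 3 members were higher, 2 of them with a log2 change of 2 or more, and 1 other family gene was higher. With limma on log2(FPKM + 1), which shrinks low genes, 0 members reached a log2 change of 2. At an FDR of 0.01, 1 other family gene was higher and 1 transducer lower. Counts of the other lists stayed within 1.5 times the value given. Without a filter Il11 was called higher (log2 change 5.24, edgeR FDR = 3.5e-05). The scalings put the median of all genes between -0.075 and 0.006.

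Same-numbered mice did not deviate together (r from -0.274 to 0.257, mean 0.0367, 2 of 5 over 0.1, and 2 of 5 saline mice closest to their own number). With the replicate block, 6 members were called higher and 0 lower, and 5987 genes were called in all, against 6495. As paired differences the ratios were 3.08, -1.40 and 1.55 (exact sign-flip permutation p = 0.0625 each, the smallest 5 pairs allow).

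Levels under about 0.1 CPM rest on 3 counts or fewer, so the saline levels of Lif, Osm, Il11 and Il6 are imprecise. All values are from 1 time point, and RNA does not give receptor or cytokine protein.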

Other observations

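Genes whose log2 CPM followed a member most closely over the 10 mice were ranked by Pearson r. These values are a description, since all 10 mice share the difference between groups and points differ in depth. For Lif the closest were Nfkb1 (r = 0.996), Tnip1 (r = 0.995) and Gm26870 (r = 0.995), with log2 changes of 2.30, 2.50 and 10.5. For Osmr they were Rlf (r = 0.993), Ets2 (r = 0.990) and Tubb6 (r = 0.989), with log2 changes of 1.2, 3.04 and 3.01. For Lifr, whose groups overlapped, they were Crot (r = 0.936), Abcb11 (r = 0.934) and Lypla1 (r = 0.917), with log2 changes of -0.63, -0.45 and -0.37, none past an FDR of 0.05 in edgeR's quasi-likelihood test (0.0875, 0.0633 and 0.056).

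Single mice held the extremes of several members at once. CD95-Ab replicate 4 was highest of its group for Il6, Lif, Osm, Clcf1 and Il11ra1 and lowest for Il6ra and Il6st. Saline replicate 5 was highest of its group for Il6, Clcf1 and Osmr and lowest for Il6ra, Il6st and Lifr. It was also the most deeply sequenced, at 62097636 counts.

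Il27, which was not tested for its few counts, had 0 to 0.208 CPM in saline and 0.239 to 0.541 CPM after CD95-Ab, and the groups did not overlap.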
